A study of Mus musculus with 23 samples.

Results

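The clustered protocadherins are cell-surface adhesion proteins of neurons, encoded by 3 gene clusters, alpha, beta and gamma, that lie next to each other on mouse chromosome 18. All genes annotated as protein coding whose symbols start with Pcdha, Pcdhb, Pcdhga, Pcdhgb or Pcdhgc were taken, which gave 57 genes of the 54232 in the count tables. Of these, 14 belong to the alpha cluster, 22 to the beta cluster and 21 to the gamma cluster. A further gene with a matching symbol, Pcdhgb8, is annotated as a pseudogene and was left out of the 58 matches. On build GRCm38 the members lie on the plus strand of chromosome 18, from 36930184 to 37841873.

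The study sequenced poly(A)-selected RNA from whole hippocampus of C57BL/6 mice in 23 libraries, to compare tau transgenic mice with different doses of the histone demethylase LSD1 (gene Kdm1a). At 9 months the groups were WT (wild type, 4 libraries), PS19 (mice carrying a tau transgene with the P301S mutation and both Lsd1 alleles, 4 libraries), PS19;Lsd1Δ/+ (the same transgene with 1 Lsd1 allele deleted, 4 libraries) and Lsd1Δ/+ (1 deleted allele and no transgene, 2 libraries). At 11 months all 3 groups had received an AAV made for expression in neurons, injected into the hippocampus: WT_HA (wild type, HA control virus, 3 libraries), PS19_HA (tau transgene, HA control virus, 3 libraries) and PS19_rescue (tau transgene, virus carrying LSD1, 3 libraries). Age and injection differ together between the cohorts, so their effects cannot be told apart. The PS19 transgene is driven by the prion protein promoter, and the labels do not say whether each library came from a separate animal, so that the p-values given here reflect variation among libraries and that variation may be technical.

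In the alpha and gamma clusters, each gene starts at its own promoter and variable exon, which is spliced to constant exons that all genes of that cluster share. Beta genes are single exons with no constant part. A neuron is thought to switch on a small random set of the alternate genes (most alpha genes, all beta genes, and the A and B types of gamma), through CTCF and cohesin, while the C-type genes at the end of the alpha and gamma clusters are read more evenly. The resulting set of proteins binds like to like, and in this way lets the branches of a neuron recognise each other.

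The shared exons limit what counts per gene can say. Of the exonic bases of each member, between 0% and 100% lie under no other annotated gene. For 19 of the 57 members, all of them beta genes, no exonic base is shared, whereas all 21 gamma members share exons with at least 25 other genes. Pcdhga10 has none of its 4732 exonic bases to itself and gathered 0 to 23 reads per library. Pcdha4 has 404 of 5768 to itself, and Pcdha11 1268 of 7535. How the counting treated reads in shared exons is not given in the sources used here, so isoform levels of alpha and gamma genes are uncertain, and reads of an antisense gene cannot be told apart from those of a member without the strand setting. The 3 protein-coding read-through genes that span the clusters, Gm42416, Gm37013 and Gm37388, were listed at 0 reads in all 23 libraries.

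The libraries held 15451494 to 24644977 counted reads, of which the members took 0.0337% to 0.0651% (median 0.0536%), or 5298 to 13839 reads. Mitochondrial genes took 2.86% to 6.04% of the reads in most libraries but 33.9% in the third WT library (replicate 3), 16.2% in WT_HA replicate 2, and 16.1% in the third PS19 library. Kdm1a itself followed the labels in most libraries: 51.4 to 61.4 CPM (counts scaled to a common library size with TMM factors) in WT, 35.4 and 36.5 in Lsd1Δ/+, and 1727, 2954 and 10810 in PS19_rescue. In PS19;Lsd1Δ/+ it stood at 35.5, 35.3, 56.5 and 45.1 CPM, so the library labelled PS19;Lsd1Δ/+ replicate 3 was within the WT range. All 10 listed general neuron markers and all 10 excitatory neuron markers averaged above 0.5 CPM, and choroid plexus markers summed to between 41.1 and 3610 CPM per library.

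Every member but Pcdhb1 and Pcdhga10 had reads in every library (55 of 57), and 52 of 57 averaged at least 1 CPM. The gamma cluster held the largest summed CPM, which is not corrected for gene length or number, and the alpha cluster the smallest: the gamma sum exceeded the beta sum in 22 of 23 libraries, and the beta sum exceeded the alpha sum in 23 of 23. The exception was WT replicate 3, the library with the highest mitochondrial share, where beta members summed to 243.0 CPM and gamma members to 229.0 CPM.

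Per kilobase of exon that no other gene covers, 3 C-type genes led. Pcdhgc3, which acts in dendrite branching, stood at 20.4 ± 7.12 CPM per kb (SD over 23 libraries), and Pcdhgc5, a gamma protein of maturing neurons and synapses, at 19.96 ± 6.99. These levels differed by less than their spread. Pcdhac2, the alpha gene used by serotonergic axons to space their endings, followed at 11.4 ± 1.79 and Pcdhga11 at 8.95 ± 3.51, which differed by less than the SD of Pcdhga11. The next members, Pcdhgb6 (5.43 ± 1.23), Pcdhb9 (5.37 ± 1.07) and Pcdhga3 (5.07 ± 1.13), could not be ordered either. These lengths leave out bases under a gene on either strand. With genes of the same strand alone, Pcdhgc3 has 3380 unshared bases rather than 1821 and Pcdhga11 2637 rather than 1256. Pcdhgc5 has 4606 either way. The levels per kb of Pcdhgc3 and Pcdhga11, and the medians by subgroup, therefore depend on the strand setting, which is not given. The other C-type genes were not high: Pcdhgc4, which is needed for the survival of cortical interneurons, reached 3.39 ± 1.22 CPM per kb and Pcdhac1 only 1.23 ± 0.25. The lowest were Pcdhb1 (0.146), Pcdha8 (0.183) and Pcdha11 (0.205). By subgroup the median member stood at 1.01 CPM per kb among the 12 alternate alpha genes, 1.49 among the 22 beta genes, 4.28 among the gamma A genes that have unshared exon, 2.59 among the 6 gamma B genes and 19.96 among the 3 gamma C-type genes.

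**Figure D1:**
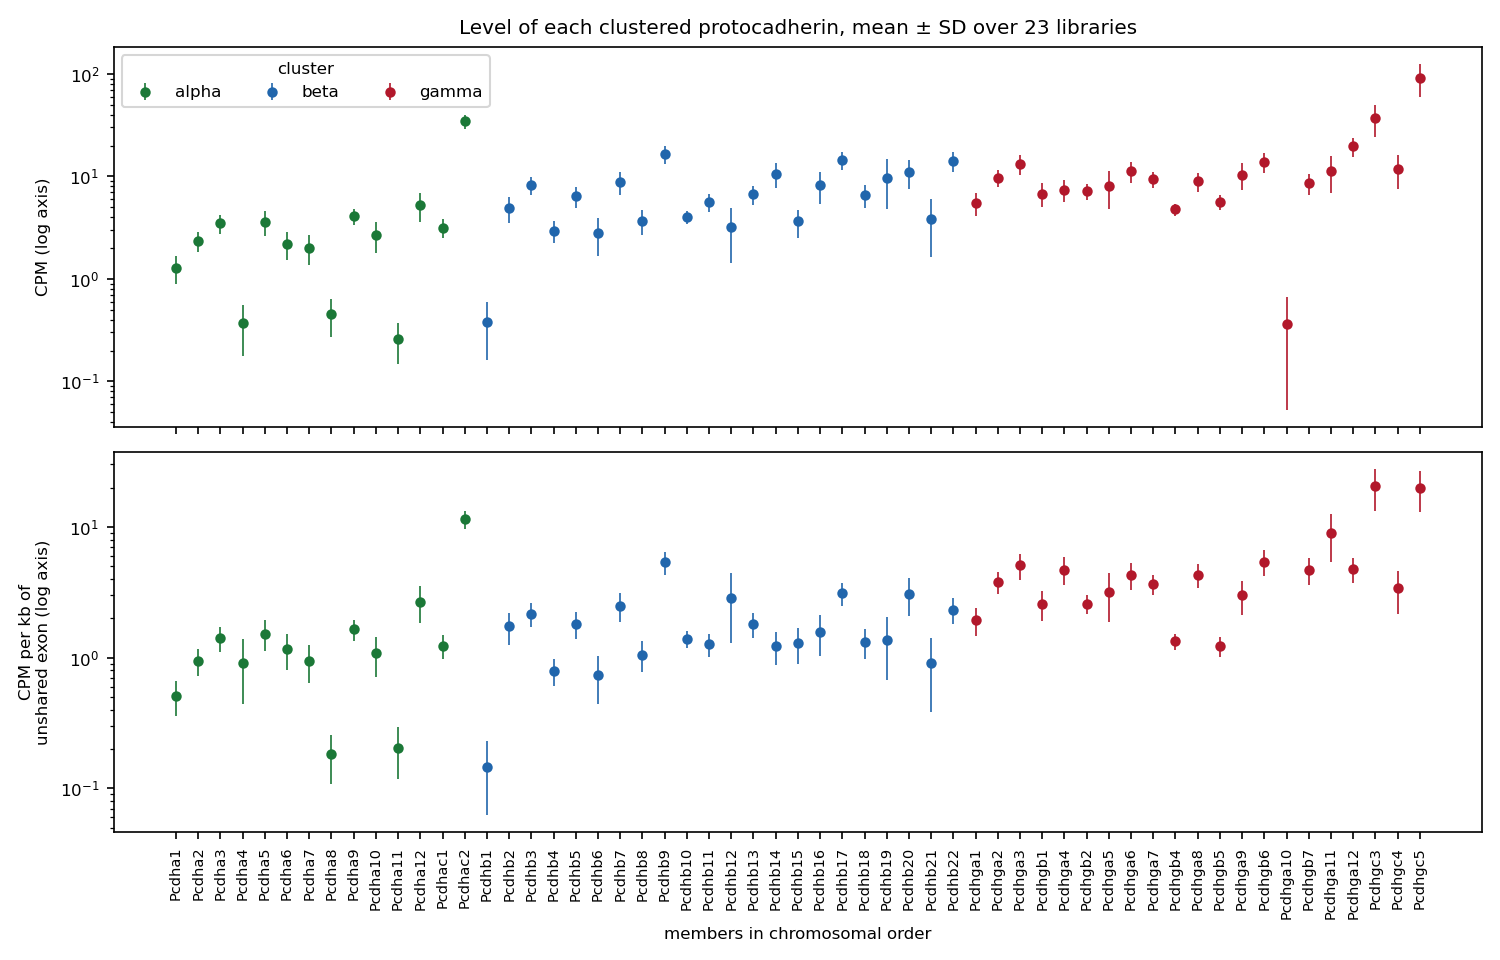
Mean level of each member over 23 libraries, in chromosomal order along the x axis, as CPM (upper, log axis) and as CPM per kb of exon under no other gene (lower, log axis). Points are means and bars are SDs, cut short where they would reach 0. Pcdhac2, Pcdhgc3 and Pcdhgc5 stand above their clusters, Pcdhb1 is the lowest beta member, and Pcdhga10 has no lower-panel point because it has no unshared exon.

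The alternate genes with the highest and lowest CPM in each subgroup are given next on the CPM scale, which is not corrected for length and can order genes differently from the scale per kb. Among alternate alpha genes, Pcdha12 averaged 5.21 CPM and Pcdha9 4.10 CPM, whereas Pcdha11 averaged 0.261 CPM. Among beta genes, Pcdhb9 averaged 16.4 CPM and Pcdhb17 14.5 CPM, whereas Pcdhb1 averaged 0.378 CPM with 0 to 20 reads per library. In gamma A these were Pcdhga12 at 19.6 CPM, Pcdhga3 at 13.2 CPM and, lowest, Pcdhga10 at 0.359 CPM. In gamma B they were Pcdhgb6 at 13.9 CPM, Pcdhgb7 at 8.57 CPM and Pcdhgb4 at 4.78 CPM. The coefficient of variation over 23 libraries ran from 13.6% for Pcdhgb4 to 85.3% for Pcdhga10.

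The C-type genes are given library by library, since they include the most abundant members. Pcdhgc5 was the member with the highest CPM in 22 of 23 libraries. Its levels were 126, 137, 45.4 and 83.8 CPM in WT replicates 1 to 4, 112, 138, 62.2 and 76.8 in PS19, 155, 44.8, 75.6 and 97.2 in PS19;Lsd1Δ/+, and 127 and 147 in Lsd1Δ/+. At 11 months they were 81.2, 77.2 and 67.7 CPM in WT_HA, 72.7, 87.9 and 86.2 in PS19_HA, and 81.3, 73.4 and 58.4 in PS19_rescue. The spread within each 9-month group of 4 was more than 2-fold, the groups overlapped, and at 11 months the 3 groups also overlapped.

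The exception to the lead of Pcdhgc5 was PS19;Lsd1Δ/+ replicate 2, where it was lowest of all libraries at 44.8 CPM while Pcdhgc3 (67.0 CPM), Pcdhgc4 (24.8 CPM) and Pcdhgb6 (25.8 CPM) were at their highest. In that library the 10 excitatory neuron markers, such as Slc17a7 and Camk2a, summed to 1797 CPM, the lowest of 23, against 2521 to 9184 CPM in the others. In the library with the highest Pcdhgc5, PS19;Lsd1Δ/+ replicate 1, they summed to 7251 CPM. The 6 listed thalamus markers summed to 321.1 CPM in PS19;Lsd1Δ/+ replicate 2. They summed to 573.9, 542.3 and 689.4 CPM in replicate 3 of WT_HA, PS19_HA and PS19_rescue. In all other libraries they summed to 94.99 to 250.2 CPM. The 8 GABA neuron markers summed to 1158 CPM in PS19;Lsd1Δ/+ replicate 2, within the 734.5 to 1226 CPM of the others. Whether any of these marker levels had a part in the Pcdhgc5 level was not tested, nor was the share of each brain region in a library. In bulk tissue fewer cells of a type and less RNA per cell cannot be told apart.

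Pcdhgc3 stood at 47.2, 44.4, 14.2 and 32.5 CPM in WT, 61.0, 43.0, 19.4 and 43.3 in PS19, 57.3, 67.0, 37.4 and 44.5 in PS19;Lsd1Δ/+, and 40.7 and 37.8 in Lsd1Δ/+. At 11 months it stood at 27.5, 22.2 and 29.7 CPM in WT_HA, 29.2, 35.3 and 32.9 in PS19_HA, and 31.2, 25.8 and 29.8 in PS19_rescue. The lowest 2 values of the series were in the 9-month libraries with high mitochondrial share, and all groups overlapped with their controls. Pcdhgc4 shared this picture at a lower level, with 13.0, 13.7, 4.01 and 10.2 CPM in WT, 13.2, 14.9, 4.53 and 10.2 in PS19, 13.9, 24.8, 10.7 and 14.5 in PS19;Lsd1Δ/+ and 13.0 and 11.1 in Lsd1Δ/+. It ranged from 6.04 to 15.4 CPM in WT_HA, from 9.20 to 12.7 in PS19_HA and from 9.75 to 15.2 in PS19_rescue.

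Pcdhac2 was the alpha gene with the highest CPM in 23 of 23 libraries and the steadiest C-type gene. It measured 32.9, 32.3, 22.9 and 39.5 CPM in WT, 23.8, 32.5, 33.5 and 32.6 in PS19, 35.6, 36.7, 27.1 and 36.1 in PS19;Lsd1Δ/+ and 30.5 and 33.5 in Lsd1Δ/+. At 11 months it measured 38.7, 44.0 and 38.2 CPM in WT_HA, 36.0, 42.1 and 42.2 in PS19_HA and 39.5, 32.5 and 32.1 in PS19_rescue. All groups overlapped with their controls. Pcdhac1 averaged 2.70 ± 0.72 CPM in WT (SD, n = 4), 2.65 ± 0.51 in PS19 (n = 4), 3.51 ± 0.59 in PS19;Lsd1Δ/+ (n = 4), 3.61 ± 0.054 in Lsd1Δ/+ (n = 2), 3.01 ± 0.98 in WT_HA (n = 3), 3.67 ± 0.28 in PS19_HA (n = 3) and 3.29 ± 0.19 in PS19_rescue (n = 3). Both Lsd1Δ/+ libraries, at 3.57 and 3.65 CPM, were above the 4 WT libraries, at 1.66 to 3.30 CPM. Of all genes, 4.97% were likewise higher without overlap in this comparison. For Pcdhac1 the other groups overlapped with their controls.

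**Figure D2:**
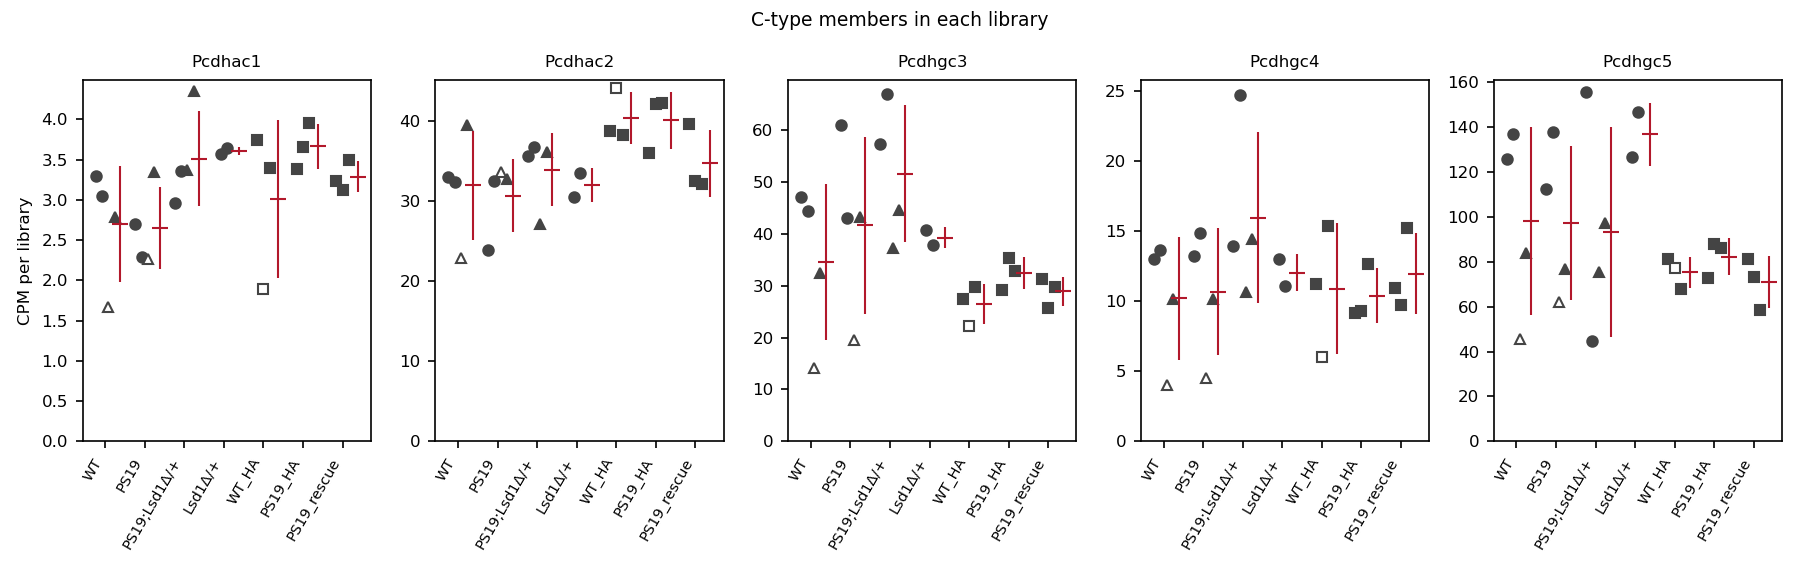
CPM of the 5 C-type members in each library, by group on the x axis. Circles are 9-month replicates 1 and 2, triangles 9-month replicates 3 and 4, squares 11-month libraries, open symbols the 3 libraries with 16.1% or more mitochondrial reads, and red bars the group mean ± SD. In Pcdhgc3 and Pcdhgc4 the open triangles are the lowest 9-month points, and in Pcdhgc5 the PS19;Lsd1Δ/+ points run from 44.8 to 155 CPM.

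Summed over all 57 members, the family level was close between groups: 531 ± 9.99 CPM in WT, 507 ± 23.2 in PS19, 533 ± 71.8 in PS19;Lsd1Δ/+ and 535 ± 1.20 in Lsd1Δ/+ at 9 months, and 544 ± 22.8 in WT_HA, 534 ± 16.8 in PS19_HA and 494 ± 10.6 in PS19_rescue at 11 months. The 3 PS19_rescue sums, 482.6 to 503.4 CPM, lay below the 3 of PS19_HA, 515.1 to 545.5 CPM, and below the 3 of WT_HA, 522.2 to 567.5 CPM. These sums are a description, and no p is given for them. Beside them, 3.74% of all genes were lower in PS19_rescue without overlap against PS19_HA, and 5.14% against WT_HA. Of the 55 tested members, 1 and 3 were.

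Beta sums were 131, 113, 243 and 173 CPM in WT, 120, 109, 193 and 145 in PS19, 144, 108, 138 and 144 in PS19;Lsd1Δ/+ and 124 and 117 in Lsd1Δ/+. At 11 months they were 176, 210 and 182 CPM in WT_HA, 175, 168 and 183 in PS19_HA and 154, 162 and 183 in PS19_rescue. The highest beta sum of WT, of PS19 and of WT_HA was each time the library with the high mitochondrial share. Gamma sums were 344, 355, 229 and 291 CPM in WT, 352, 355, 260 and 271 in PS19, 412, 332, 263 and 329 in PS19;Lsd1Δ/+, and 346 and 352 in Lsd1Δ/+. The lowest of WT and of PS19 were those same libraries. At 11 months gamma sums were 272.5, 288.4 and 281.1 CPM in WT_HA, 271.0, 300.3 and 282.6 in PS19_HA and 269.1, 253.0 and 255.6 in PS19_rescue. In WT_HA the library with the high mitochondrial share, replicate 2, had the highest gamma sum. Alpha sums varied less, from 46.5 CPM in WT replicate 3 to 80.0 CPM in PS19_HA replicate 3.

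**Figure D3:**
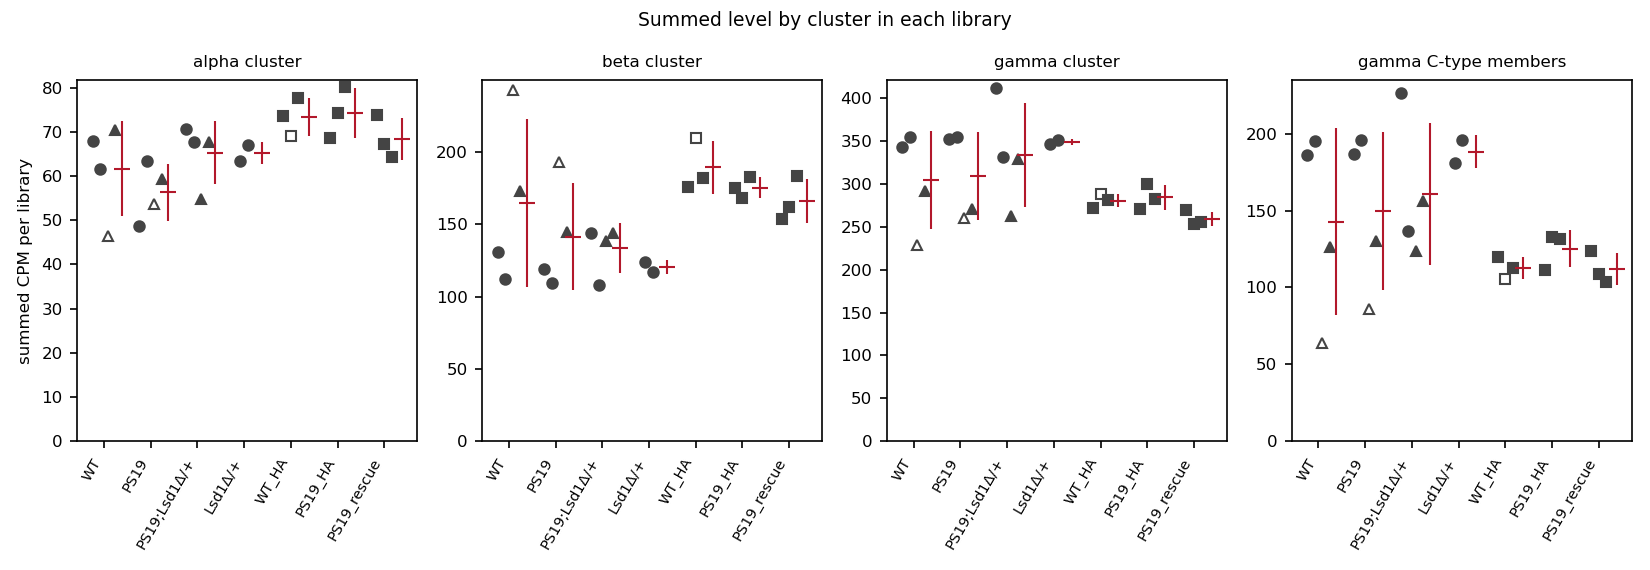
Summed CPM of the alpha, beta and gamma clusters and of the 3 gamma C-type members in each library, by group on the x axis. Circles are 9-month replicates 1 and 2, triangles 9-month replicates 3 and 4, squares 11-month libraries, open symbols the 3 libraries with high mitochondrial share, and red bars the group mean ± SD. Among 9-month libraries, the open triangles are highest for beta (243 and 193 CPM) and lowest for gamma C-type members (63.6 and 86.1 CPM).

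The balance of the clusters differed between replicate numbers within genotypes. In the 8 libraries of the 9-month cohort numbered 1 or 2, beta members made up 20.7% to 24.1% of member CPM, in the 6 numbered 3 or 4 they made up 26.7% to 46.9%, and in the 9 of the 11-month cohort 30.9% to 37.0%. Gamma members made up 63.4% to 67.7%, 44.2% to 60.8% and 50.8% to 55.3% in the same sets. Neither share overlapped between the 9-month libraries numbered 1 or 2 and the other libraries. The labels give no batch or date, so what the replicate numbers stand for is not known, and this split was noticed in the data. Each of WT, PS19 and PS19;Lsd1Δ/+ has 2 libraries of either kind, while Lsd1Δ/+ has only replicates 1 and 2.

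Single members showed the same split. Pcdhga11 stood at 13.7 to 20.8 CPM in the 9-month libraries numbered 1 or 2 and at 6.26 to 10.8 CPM in those numbered 3 or 4. Pcdhb18 stood at 4.19 to 5.50 CPM and at 6.68 to 9.88 CPM in the same sets. Pcdhb22 stood at 9.78 to 11.9 CPM and at 14.5 to 22.0 CPM. None of these ranges overlapped, and the 3 genes were chosen after their values were seen. How many members and what share of all genes separated in this way was not counted, so these values do not show whether the split is particular to the members. Wapl, a gene outside the clusters, also separated, at 46.3 to 56.4 CPM and at 79.1 to 177 CPM in the same sets.

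**Figure D4:**
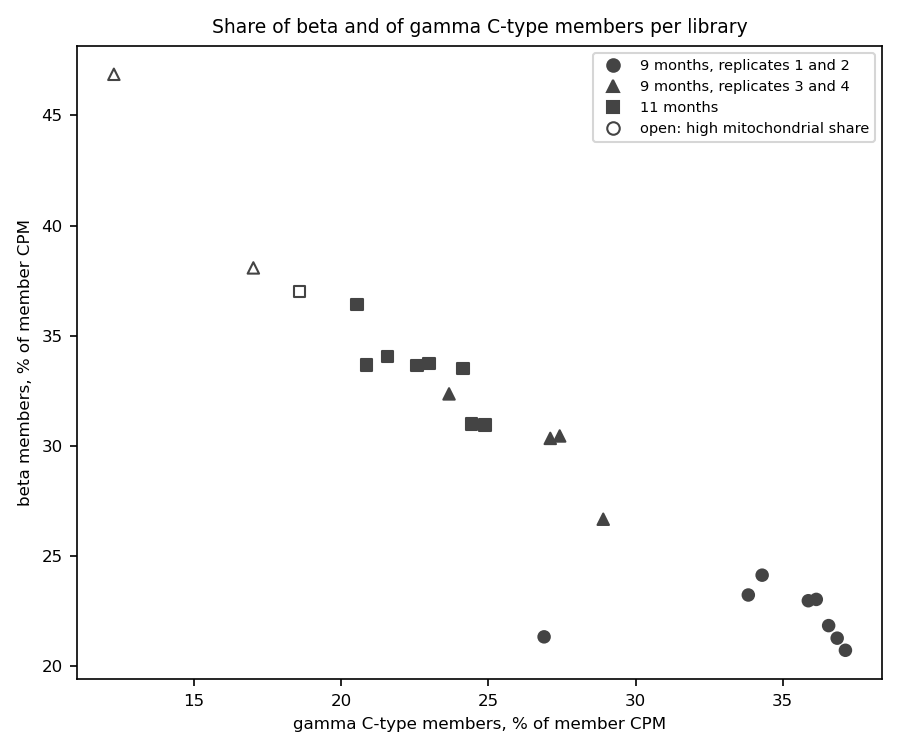
Share of member CPM held by the 22 beta members (y axis, %) against that held by the 3 gamma C-type members (x axis, %), one point per library. Circles are 9-month replicates 1 and 2, triangles 9-month replicates 3 and 4, squares 11-month libraries, and open symbols the 3 libraries with high mitochondrial share. The 9-month circles lie at beta shares of 20.7% to 24.1%, below all triangles and squares.

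Across the 23 libraries the genes most like Pcdhgc5 in log2 CPM, as a description of libraries that share cohort, replicate set and tissue composition, were Sept9 (Pearson r = 0.97), Synpo (0.96) and Rtn4rl2 (0.96). Its closest member was Pcdha12 at 0.61, and its most opposite were Pcdhb14 at -0.80 and Pcdhb18 at -0.74. The 5 C-type genes summed were most like Clip2 (0.96), Eif3b (0.96) and Mfn2 (0.95). Pcdhac2 was most like Zfp507 (0.79), Myo16 (0.78) and Ube2e1 (0.76), and Pcdhb9 most like Slc2a13 (0.82), Zfp551 (0.82) and Zfp433 (0.80). The members closest to Pcdhb9 were the beta genes Pcdhb5 (0.78), Pcdhb8 (0.76) and Pcdhb7 (0.75).

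Tau transgenic and wild-type mice at 9 months, PS19 against WT, address what mutant tau alone does to the family. With edgeR's quasi-likelihood test, 0 of the 56 tested members were called at an adjusted p under 0.05, against 0.00497% of all 20122 genes. DESeq2 called 0 members against 0.949% of all genes. At an unadjusted p under 0.05 there was 1 member, Pcdhb6, against 3.91% of all genes. All 13 tested alpha members had estimates below 0 (median log2 difference -0.17), as did 19 of 22 beta members (-0.15) and 12 of 21 gamma members (-0.01), beside a median of -0.02 over all genes, and the median standard error of a member was 0.30. WT replicate 3, the library with the highest mitochondrial share, moved the beta count: without it 11 of 22 beta members were lower (median -0.01), while all 13 alpha members stayed below 0 (-0.28). Between replicates 1 and 2 alone, 11 of 22 beta members (median -0.01) and 10 of 13 alpha members (-0.18) were lower.

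Pcdhb6 stood at 2.12, 1.95, 5.97 and 3.81 CPM in WT and at 1.91, 1.59, 2.27 and 1.54 CPM in PS19. PS19 replicate 3 was above 2 of the WT libraries, so the groups overlapped. Its log2 difference was -0.91 ± 0.36 (SE, adjusted p = 0.908). Between replicates 1 and 2 alone it was -0.18, between replicates 3 and 4 alone -1.37, and without WT replicate 3 it was -0.53. Pcdha5 had a log2 difference of -0.54 ± 0.28 (adjusted p = 1), which was -0.32 without WT replicate 3. On the higher side Pcdhgb7 differed by 0.36 ± 0.28 and Pcdhgb5 by 0.24 ± 0.19, both with an adjusted p of 1. The Pcdhgb7 difference was 0.18 without WT replicate 3, 0.21 without PS19 replicate 1 and 0.56 without WT replicate 2. Pcdhgb5 was also the 1 member whose groups did not overlap, at 4.67 to 5.29 CPM in WT and 5.37 to 6.43 CPM in PS19, against 1.47% of all genes without overlap.

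Deletion of 1 Lsd1 allele on the tau background was compared with WT and with PS19. These comparisons share their PS19;Lsd1Δ/+ libraries, and the comparisons of PS19, PS19;Lsd1Δ/+ and Lsd1Δ/+ with WT share the WT libraries. In PS19;Lsd1Δ/+ against WT, edgeR called 0 of 56 members (0.00497% of all genes) and DESeq2 0 (0.547% of all genes), and 0 had an unadjusted p under 0.05 (6.31% of all genes). The beta members were lower in 20 of 22 estimates (median -0.24), whereas 10 of 13 alpha members (median 0.13) and 13 of 21 gamma members (median 0.17) were higher. Over all genes the median was 0.00. The beta count rested on the libraries used: without WT replicate 3, 14 of 22 beta members were lower (median -0.06), between replicates 1 and 2 alone 6 of 22 were lower (0.14), and between replicates 3 and 4 alone 20 of 21 were lower (-0.55). For alpha members the median was 0.00 and for gamma members 0.07 without WT replicate 3, with 7 of 13 and 16 of 21 higher.

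Among the gamma C-type genes in this comparison, Pcdhgc4 differed by 0.64 ± 0.41 (95% interval -0.25 to 1.52) and Pcdhgc3 by 0.57 ± 0.37 (-0.23 to 1.38), with adjusted p of 0.836 and 0.837. Pcdhgc5 differed by -0.07 ± 0.40 (-0.93 to 0.79). Without WT replicate 3, Pcdhgc4 differed by 0.37 and Pcdhgc3 by 0.31, and without PS19;Lsd1Δ/+ replicate 2 Pcdhgc4 differed by 0.34. The lowest estimates by p were Pcdha5 at -0.60 ± 0.28 (adjusted p = 0.789, and -0.39 without WT replicate 3) and Pcdhb19 at -0.92 ± 0.49 (adjusted p = 0.826). Pcdhb19 stood at 9.28, 5.38, 22.4 and 12.03 CPM in WT and at 5.32, 4.02, 7.90 and 8.77 in PS19;Lsd1Δ/+, with the highest value in the high-mitochondrial WT library. Without that library the difference was -0.48. A pair of members did not overlap between groups, against 4.37% of all genes: Pcdhgb5, at 5.57 to 6.87 CPM, was above WT, and Pcdhb1, at 0 to 0.258 CPM, was below WT, where it was 0.286 to 0.423 CPM.

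The same-numbered libraries of WT, PS19 and PS19;Lsd1Δ/+ had positively correlated deviations from their group means, although not each library correlated best with its own number, and a DESeq2 fit that blocks on replicate number, an alternative added after seeing the data, gave other counts. It called 1 member in PS19 against WT, against 1.81% of all genes: Pcdhb19, with a log2 difference of -0.83 ± 0.23 (adjusted p = 0.0208). In PS19;Lsd1Δ/+ against WT it called 5 members, against 4.33% of all genes. Pcdhgc3 (0.66, adjusted p = 0.0276) and Pcdhgc4 (0.69, adjusted p = 0.047) were higher, and Pcdhb19 (-0.81, adjusted p = 0.0173), Pcdhb21 (-0.91, adjusted p = 0.0362) and Pcdhga9 (-0.49, adjusted p = 0.0315) were lower. With the same block edgeR called none of them, with adjusted p between 0.134 and 0.205, against 0.0248% and 0.0199% of all genes. Both comparisons share the WT libraries. Among these, replicate 3, with 33.9% mitochondrial reads, was lowest for Pcdhgc3 and Pcdhgc4 and highest for Pcdhb19 and Pcdhb21. For Pcdhga9 it was neither. A blocked fit without that library was not run.

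In PS19;Lsd1Δ/+ against PS19, edgeR called 0 of 56 members (0.0% of all genes) and DESeq2 0 (0.00497% of all genes), and 0 members had an unadjusted p under 0.05 (1.25% of all genes). Of the alpha members 12 of 13 were higher (median 0.33), of the beta members 17 of 22 lower (median -0.09) and of the gamma members 13 of 21 higher (median 0.11), beside -0.02 over all genes. Between replicates 1 and 2 alone 5 of 22 beta members were lower (median 0.17), and between replicates 3 and 4 alone 18 of 21 (-0.31). Without the high-mitochondrial WT and PS19 libraries 5 of 22 were lower (0.13), and alpha members kept medians of 0.33, 0.25 and 0.23 in these 3 settings. Pcdhga7 (0.44 ± 0.21) and Pcdha9 (0.36 ± 0.21) were highest by p, and Pcdhb1 (-1.14 ± 0.66) and Pcdhb11 (-0.29 ± 0.24) lowest, all with an adjusted p of 1. The Pcdhb11 difference was -0.45 without PS19;Lsd1Δ/+ replicate 1. Pcdha10 alone did not overlap (0.631% of all genes), at 2.21 to 3.29 CPM against 0.893 to 2.13 CPM in PS19.

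Lsd1Δ/+ against WT asks for the effect of the deleted allele without tau. Of 56 members edgeR called 0 (0.0% of all genes) and DESeq2 0 (0.00497%), and 2 beta members, Pcdhb19 and Pcdhb6, had an unadjusted p under 0.05 (1.28% of all genes). Beta members were lower in 17 of 22 estimates (median -0.43), while 5 of 13 alpha and 10 of 21 gamma members were higher (medians -0.02 and -0.06). Lsd1Δ/+ has only replicates 1 and 2: against WT replicates 1 and 2 alone, 11 of 22 beta members were lower and the beta median was 0.00, and without WT replicate 3 it was -0.17. Pcdhb19 stood at 4.60 and 3.42 CPM in Lsd1Δ/+, below all 4 WT libraries, with a log2 difference of -1.61 ± 0.65 (adjusted p = 0.805). Pcdhb6 stood at 2.11 and 1.38 CPM and differed by -0.98 ± 0.45 (adjusted p = 0.805). Against WT replicates 1 and 2 alone, the differences of Pcdhb19 and Pcdhb6 were -0.86 and -0.21, and the median over members moved from -0.12 to -0.02. Pcdha10 differed by 0.88 ± 0.43 and Pcdhga8 by 0.41 ± 0.29, both with an adjusted p of 0.805. Pcdha10 stood at 4.34 and 4.03 CPM in Lsd1Δ/+ and at 3.44, 2.41, 0.98 and 2.17 in WT. Pcdhga8 stood at 12.6 and 10.9 CPM in Lsd1Δ/+ and at 11.3, 10.2, 7.1 and 6.5 in WT. For both genes WT replicates 3 and 4, numbers that Lsd1Δ/+ lacks, were below WT replicates 1 and 2. The groups of 7 members did not overlap, or 12.5%, against 10.7% of all genes.

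Whether the effect of the deleted allele differed between tau and non-tau mice was tested as an interaction at 9 months. No member was called by edgeR (0.0% of all genes) or by DESeq2 (0.00994% of all genes), and 1 had an unadjusted p under 0.05 (0.835% of all genes). That member was Pcdhb6, with an interaction of 1.35 ± 0.57 on the log2 scale (adjusted p = 0.999). It was 0.72 with replicates 1 and 2 alone. Pcdhb13 had 0.82 ± 0.43, Pcdhb1 -1.77 ± 0.97 and Pcdhga9 -0.71 ± 0.50, each with an adjusted p of 0.999.

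At 11 months PS19_HA was compared with WT_HA. Of 55 members edgeR called 0 (0.0156% of all 19290 genes) and DESeq2 0 (0.627%), and 1 had an unadjusted p under 0.05 (8.63% of all genes). Estimates were lower in 8 of 13 alpha members (median -0.06), 13 of 22 beta members (-0.08) and 13 of 20 gamma members (-0.03), beside 0.00 over all genes. Without WT_HA replicate 2, which has a high mitochondrial share, the medians were -0.24, -0.03 and 0.05, and 9 of 20 gamma members were lower. The groups of 6 members did not overlap, or 10.9%, against 13.3% of all genes.

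Pcdhga2, a gamma A gene, was the member with an unadjusted p under 0.05. It stood at 10.7, 8.05 and 10.3 CPM in WT_HA and at 12.3, 13.9 and 11.7 CPM in PS19_HA, and every PS19_HA library was above every WT_HA library. The log2 difference was 0.38 ± 0.15 (adjusted p = 0.531), and 0.27 without WT_HA replicate 2. Pcdhgc3 differed by 0.29 ± 0.14 (95% interval -0.02 to 0.60, adjusted p = 0.606), Pcdhb12 by -0.66 ± 0.33 (adjusted p = 0.618) and Pcdhb19 by -0.44 ± 0.22 (adjusted p = 0.626). Without WT_HA replicate 2 the Pcdhgc3 difference was 0.18 and the Pcdhb12 difference -0.37.

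The LSD1 virus was compared with the HA virus in tau mice, PS19_rescue against PS19_HA. Of 55 members edgeR called 0 (0.0% of all genes) and DESeq2 0 (0.0156% of all genes), and 2, Pcdhga2 and Pcdha8, had an unadjusted p under 0.05 (1.81% of all genes). Estimates were lower in 8 of 13 alpha members, 15 of 22 beta members and 14 of 20 gamma members, with medians of -0.11, -0.09 and -0.11 beside -0.01 over all genes. Pcdhga2 stood at 8.18, 8.37 and 8.45 CPM in PS19_rescue, below all 3 PS19_HA libraries, and was the only member without overlap between these groups (7.15% of all genes). Its log2 difference was -0.60 ± 0.15 (unadjusted p = 0.0025, adjusted p = 1), and between -0.65 and -0.53 when single libraries were left out. Pcdha8 differed by -0.97 ± 0.40, Pcdha2 by 0.40 ± 0.23 and Pcdhb10 by 0.27 ± 0.20, each with an adjusted p of 1. The Pcdhb10 difference was 0.11 without PS19_rescue replicate 3. This comparison shares PS19_HA with the one before it, where Pcdhga2 was higher.

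PS19_rescue was also set against WT_HA. Of 55 members edgeR called 0 (0.0207% of all genes) and DESeq2 0 (0.0933%), and 3, Pcdhga8, Pcdhb16 and Pcdhb17, had an unadjusted p under 0.05 (4.01% of all genes). Estimates were below 0 in 7 of 13 alpha members (median -0.22), 17 of 22 beta members (-0.21) and 16 of 20 gamma members (-0.11), beside 0.00 over all genes. Within gamma they were below 0 in all 11 tested A members (-0.22), 4 of 6 B members (-0.04) and 1 of 3 C-type members (0.12). Without WT_HA replicate 2, 14 of 22 beta members (-0.07), 12 of 20 gamma members (-0.05) and 8 of 11 gamma A members (-0.24) were lower, and the median over all members moved from -0.17 to -0.08. Pcdhga8 stood at 8.69, 10.6 and 8.95 CPM in WT_HA and at 6.59, 7.87 and 7.22 in PS19_rescue, which did not overlap, and differed by -0.38 ± 0.16 (adjusted p = 0.864). Pcdhb16 differed by -0.44 ± 0.19, Pcdhb1 by 0.98 ± 0.51 and Pcdha12 by 0.45 ± 0.23, with the same adjusted p. The Pcdhb16 difference was -0.67 without PS19_rescue replicate 3, and that of Pcdha12 was 0.30 without WT_HA replicate 2 and 0.24 without PS19_rescue replicate 2. The groups of 4 members did not overlap, or 7.27%, against 10.9% of all genes: Pcdhb17, Pcdhga3 and Pcdhga8 were lower and Pcdhb1 was higher.

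**Figure D5:**
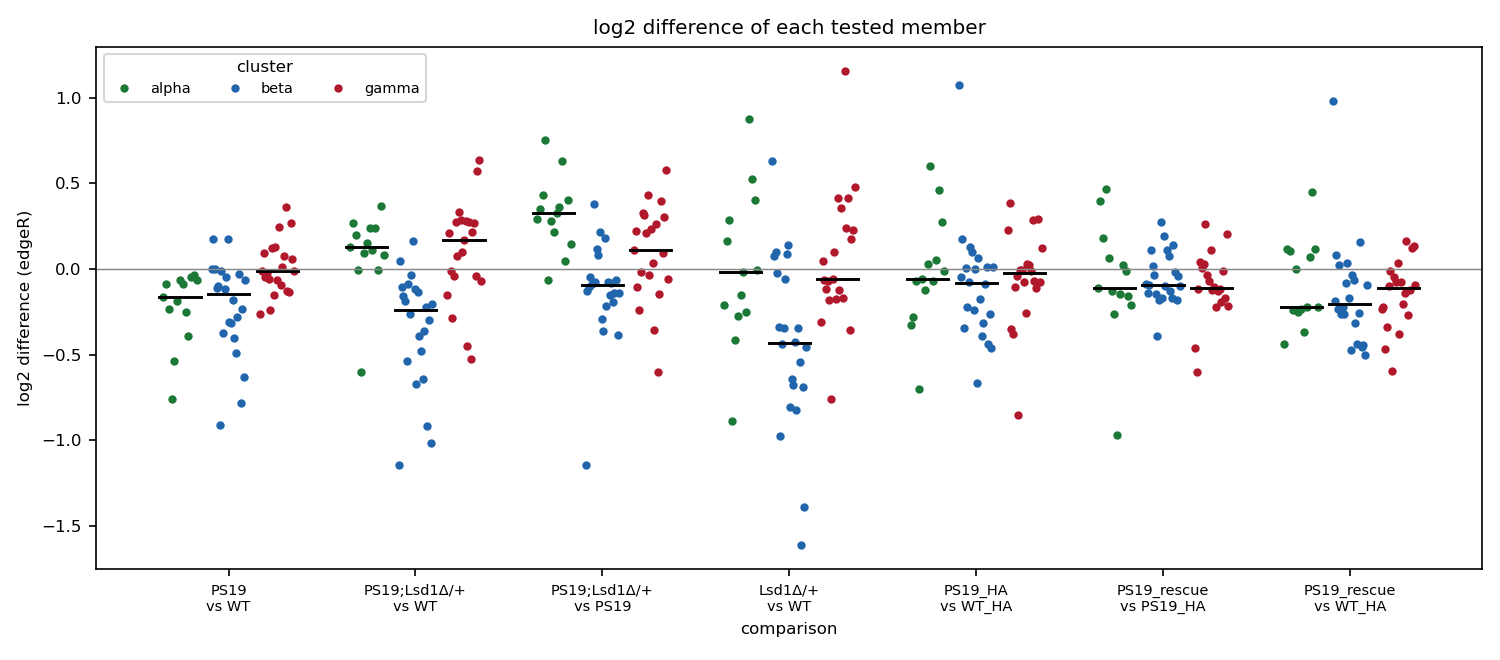
log2 difference (y axis, edgeR) of each tested member in 7 comparisons (x axis), coloured by cluster, with black bars at the cluster medians. The beta median of -0.43 in Lsd1Δ/+ against WT was 0.00 against WT replicates 1 and 2 alone, the replicate numbers that Lsd1Δ/+ has. No point passed an adjusted p of 0.05.

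The difference between the tau effects at 9 and 11 months was fitted over all 57 members. No member was called by edgeR or DESeq2 (0.0% of all 20931 genes with either), and 0 had an unadjusted p under 0.05 (0.569% of all genes). Pcdhga3 had a difference of 0.44 ± 0.35, Pcdhga5 of 0.62 ± 0.68, Pcdha11 of -1.25 ± 0.66 and Pcdhga2 of -0.40 ± 0.27, each with an adjusted p of 1. Single libraries moved these values: Pcdhga3 was 0.20 without PS19 replicate 3 and 0.25 without PS19_HA replicate 3, Pcdha11 was -0.77 without PS19_HA replicate 3, and Pcdhga2 was -0.24 without WT_HA replicate 2. Pcdhga5 was 0.22 without PS19 replicate 3, 0.24 without PS19_HA replicate 1 and 1.13 without PS19_HA replicate 3. For the C-type genes the 95% intervals of this difference ran from -1.21 to 0.93 for Pcdhgc5 and from -0.58 to 0.47 for Pcdhac2, so changes of that size are not excluded by these libraries.

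Genes around the family were read from lists. None of the 22 factors that shape or silence the clusters, such as Ctcf, Rad21, Smchd1 and Setdb1, was called by edgeR at 9 months, and at 11 months Kdm1a alone was, in PS19_rescue against WT_HA (log2 difference 6.33, adjusted p = 0.0312). Against PS19_HA, Kdm1a differed by 6.38 and edgeR did not call it (adjusted p = 0.0895), whereas DESeq2 did (adjusted p = 1.27e-18). A gene that edgeR did not call here can therefore still differ strongly. Of these factors 17 of 22 were lower in PS19 than WT (median -0.07), 15 of 22 in PS19;Lsd1Δ/+ than WT (-0.12), 14 of 22 in PS19;Lsd1Δ/+ than PS19 (-0.10), 17 of 22 in Lsd1Δ/+ than WT (-0.43), 18 of 22 in PS19_HA than WT_HA (-0.09), 12 of 22 in PS19_rescue than PS19_HA (0.00) and 18 of 22 in PS19_rescue than WT_HA (-0.11). Their sum was 3031 CPM in WT replicate 3 against 1446 to 1954 CPM in the other WT libraries, and 2498 CPM in WT_HA replicate 2 against 1907 and 1975 CPM. Without WT replicate 3, 8 of 22 were lower in PS19 than WT (0.11), 10 of 22 in PS19;Lsd1Δ/+ (0.01) and 17 of 22 in Lsd1Δ/+ (-0.24), and against WT replicates 1 and 2 alone 12 of 22 in Lsd1Δ/+ (0.00). Without WT_HA replicate 2, 12 of 22 were lower in PS19_HA (-0.02) and 11 of 22 in PS19_rescue (0.00). Rest, the neuronal gene repressor, differed by 0.38 ± 0.28 at 9 months and by 0.43 ± 0.18 at 11 months between tau and wild-type mice (adjusted p = 1 and 0.569). None of the 26 listed proteases, kinases and partners of the family was called by edgeR in the 7 comparisons, and their medians lay between -0.08 and 0.01. The sheddase Adam17 differed by 0.49 ± 0.20 in PS19 against WT (adjusted p = 0.955) and by 0.35 ± 0.13 in PS19_HA against WT_HA (adjusted p = 0.509).

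The non-clustered protocadherins, which are encoded at single loci, had estimates below 0 in 11 of 12 genes in PS19 against WT (median -0.34), in 12 of 12 in PS19;Lsd1Δ/+ against WT (-0.52) and in 10 of 12 in PS19_HA against WT_HA (-0.20), and none was called by edgeR. They were below 0 in 11 of 12 genes in PS19;Lsd1Δ/+ against PS19 (-0.23), 9 of 12 in Lsd1Δ/+ against WT (-0.43) and 9 of 12 in PS19_rescue against WT_HA (-0.17), and above 0 in 9 of 12 in PS19_rescue against PS19_HA (0.13). Without WT replicate 3 the medians were -0.12 in PS19, -0.44 in PS19;Lsd1Δ/+ and -0.24 in Lsd1Δ/+ against WT, and against WT replicates 1 and 2 alone that of Lsd1Δ/+ was -0.10. Pcdh11x differed by -0.77 ± 0.50 in PS19 against WT (adjusted p = 1). Its levels were 9.9, 8.2, 33.6 and 12.6 CPM in WT replicates 1 to 4 and 5.7, 5.8, 13.5 and 12.6 CPM in PS19. Pcdh17, an axon adhesion protein, differed by -0.76 ± 0.34 in PS19;Lsd1Δ/+ against WT (adjusted p = 0.789) and by -0.53 ± 0.19 in PS19_HA against WT_HA (adjusted p = 0.513). Pcdh17 stood at 251.6 CPM in WT replicate 3, at 106.9 to 151.5 in the other WT libraries and at 55.96 to 107.8 in PS19;Lsd1Δ/+. At 11 months Pcdh17 stood at 194.7 CPM in WT_HA replicate 2, at 142.2 and 156.2 in the other WT_HA libraries and at 81.67 to 132.0 in PS19_HA. Beside these values, the 10 general neuron markers summed to 13170 CPM in WT replicate 3, to 6435 to 7596 CPM in the other WT libraries and to 5389 to 6683 CPM in PS19;Lsd1Δ/+, the 8 microglia markers to 271 to 304 CPM in WT and 416 to 641 CPM in PS19;Lsd1Δ/+, and the part of tissue composition in the differences was not tested. Of the 20 classical cadherins and catenins, 14 were lower in PS19 than WT (median -0.15) and none was called by edgeR in the 7 comparisons. The catenin Ctnna1 differed by 0.42 ± 0.18 in PS19 against WT (adjusted p = 1), and Celsr1, an atypical cadherin of planar cell polarity, by 0.64 ± 0.17 in PS19_HA against WT_HA (adjusted p = 0.454).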

How the data were processed

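The members, lists and tests were chosen with earlier results of these data known. Per the labels, groups and replicate numbers came from sample titles. The deposited files hold raw counts per gene, 1 file per library. Per the submitters' processing notes, the authors used FastQC 0.11.7, Trimmomatic 0.36.5, HISAT2 2.1.0, featureCounts 1.6.0.6 and DESeq2 2.11.40.2 on GRCm38. How strand, shared exons and repeated alignments were handled, and with which annotation, was not given in the sources used here. Symbols came from a GENCODE annotation of GRCm38, matching 54165 of 54232 identifiers. It gives the symbol Pcdha11 to 2 of them, and RefSeq names the first by position as Pcdha10.

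Counts were tested with edgeR 4.0.16 in R 4.3.3 (TMM, robust quasi-likelihood test, filterByExpr with minimum count 10 and minimum total 15) and adjusted by Benjamini-Hochberg over all genes tested, and a call is an adjusted p under 0.05. The 14 libraries of 9 months (20122 genes), the 9 of 11 months (19290 genes) and all 23 (20931 genes) were fitted apart. Pcdha11 failed the filter at 9 months, and Pcdha11 and Pcdhga10 at 11 months. DESeq2 1.42.0 was the second tool. The code was tested on simulated data with less spread between libraries than these data. That test therefore does not show what share of real differences would be called here.

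Named members were the C-type genes, the 2 highest and the lowest by CPM of each other subgroup, and in each comparison called members or else the 2 higher and 2 lower with the lowest p. For each gene list they were called genes or else the gene with the lowest p, and for likeness the 3 genes outside the clusters with the highest Pearson correlation of log2 CPM. Other settings were DESeq2, no filter, other scaling, mitochondrial genes or libraries left out, replicate subsets, single libraries left out and the replicate block.

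Same-numbered libraries correlated in their deviations at 0.485 to 0.807 in PS19 and WT, 0.301 to 0.524 in PS19;Lsd1Δ/+ and WT, 0.289 to 0.467 in PS19;Lsd1Δ/+ and PS19, 0.101 to 0.277 in PS19_HA and WT_HA and 0.111 to 0.444 in PS19_rescue and WT_HA. They were read as paired there, from the data only, since every correlation was over 0.1. The main fits did not use this pairing. The replicate block was another setting, and it was fitted in every comparison, including those that did not pair. A library correlated best with its own number in 4 of 4, 2 of 4 and 0 of 4 pairs of the 9-month comparisons in this order, and in 3 of 3 and 2 of 3 at 11 months. Errors of CPM are SDs over libraries.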

Additional observations from a re-analysis of the deposited data

Results flagged for a closer look

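Within groups of 4 libraries, 11 of 117 sets of values had 1 library whose gap to the nearest, as a share of the group's range, exceeded Dixon's 95% critical value. Chance gives about 5% of independent sets. These sets are not independent, since sums were tested beside members that they hold, and some members were named for a low p. The 11 can therefore not be set against that 5%. In PS19 replicate 1, Pcdhac2 stood at 23.8 CPM against 32.5 to 33.5 in the 3 others, and the summed alpha C-type genes at 26.5 CPM against 34.8 to 36.0. In PS19 replicate 3, which has a high mitochondrial share, Pcdhga3 stood at 20.5 CPM against 10.4 to 11.5. In WT replicate 3, with the highest mitochondrial share, Pcdhb12 stood at 9.00 CPM against 1.79 to 2.91 and Pcdhb13 at 10.3 CPM against 6.10 to 6.35. In WT replicate 1, Pcdhga7 stood at 10.04 CPM against 8.25 to 8.51.

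The other 5 were in PS19;Lsd1Δ/+. The beta sum of replicate 2 was 108.4 CPM against 138.4 to 144.4 CPM, in the library with the lowest excitatory neuron marker sum. In replicate 3, Pcdhac2 stood at 27.1 CPM against 35.6 to 36.7 and Pcdhb6 at 1.96 CPM against 2.49 to 2.52. Pcdhgb4 stood at 6.35 CPM in replicate 1 against 4.72 to 4.98, and Pcdhga5 at 12.02 CPM in replicate 4 against 8.80 to 9.07.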

How the results depend on the processing

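Of 152 counts of called members, 150 stayed at 0 under another setting. The 2 that did not came from DESeq2 with the replicate block, which called 1 member in PS19 against WT and 5 in PS19;Lsd1Δ/+ against WT, and edgeR with the replicate block called 0 in each. The block moved the median log2 difference of tested members to -0.10, 0.02, 0.09, -0.07, -0.05, -0.10 and -0.14 in the 7 comparisons, in the order of the plot of log2 differences, and changed no other call. Lsd1Δ/+ with WT (0.0316 and 0.0608) and PS19_rescue with PS19_HA (0.0632 to 0.23) did not pair. Leaving out single libraries moved the median to between -0.171 and -0.069 in PS19 against WT, between -0.117 and 0.045 in PS19;Lsd1Δ/+ against WT, between -0.005 and 0.168 in PS19;Lsd1Δ/+ against PS19, between -0.210 and -0.023 in Lsd1Δ/+ against WT, between -0.085 and -0.022 in PS19_HA against WT_HA and between -0.191 and -0.076 in PS19_rescue against WT_HA. With replicates 3 and 4 only it was -0.20 in PS19 against WT, -0.21 in PS19;Lsd1Δ/+ against WT and -0.072 in PS19;Lsd1Δ/+ against PS19. With replicates 1 and 2 only it was 0.17 in PS19;Lsd1Δ/+ against WT, 0.21 in PS19;Lsd1Δ/+ against PS19 and -0.016 in Lsd1Δ/+ against WT. Without the libraries of highest mitochondrial share it was 0.19 in PS19;Lsd1Δ/+ against PS19 and -0.076 in PS19_rescue against WT_HA. Summed per cluster, the median of the 3 clusters was 0.083 in PS19;Lsd1Δ/+ against WT, 0.082 in Lsd1Δ/+ against WT and 0.019 in PS19_HA against WT_HA. With mitochondrial genes left out, mean cluster sums rose to 70.5, 79.3 and 73.8 CPM for alpha in Lsd1Δ/+, WT_HA and PS19_rescue, to 130.2 and 188.6 CPM for beta in Lsd1Δ/+ and PS19_HA, and to 377, 303.2, 305.9 and 279.7 CPM for gamma in Lsd1Δ/+, WT_HA, PS19_HA and PS19_rescue. Leaving those genes out shrinks the read total that CPM is scaled to, so sums tend to rise by the setting itself. Only means that moved by more than the SD of their group are listed, so groups with a wide spread can be absent. For named members, 603 values kept their direction and their side of the threshold, and 3 passed it with DESeq2 and the block. The cause was not tested. Members with few reads, such as Pcdhb1 with 0 to 20 and Pcdhga10 with 0 to 23, allow no statement on small differences.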
